A study of Mus musculus with 6 samples.

Results

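Troponins and tropomyosins were examined in ventricles of chimeric mouse embryos in which the long non-coding RNA Tbx5ua had been knocked down. The set comprised the 10 genes Tnnt1, Tnnt2, Tnni1, Tnni2, Tnni3, Tnnc1, Tpm1, Tpm2, Tpm3 and Tpm4, taken by gene symbol, and all 10 were found among the 23284 genes of the authors' expression table. RNA was taken from heart ventricles at embryonic day (E) 9.5 of 3 WT embryos and 3 KD embryos, all made from C57BL/6 ES cells by tetraploid complementation, so that the diploid ES cells form the body of the embryo while the tetraploid host cells are largely confined to extraembryonic tissue. The KD embryos carried the genotype Tbx5ua -/-. Exon 2 of each allele holds a transcription stop, made of 3 polyadenylation signals (bovine growth hormone) in a row. The edited ES cell lines were clonal, and the labels do not give the line behind each embryo. The table gave each gene a single pooled value per genotype, in FPKM (fragments per kilobase of transcript scaled to the number of mapped fragments). It held no value of a single embryo, so no SD and no comparison with the spread between embryos can be computed from it, the authors' own test columns were not used, and every difference described here is one between 2 pooled values. Library depth is unknown, and Tbx5ua itself is not analysed here.

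Tropomyosin is a coiled coil that lies along the actin filament of the sarcomere and, at rest, covers the sites to which myosin binds. The troponin complex sits on it: troponin C binds calcium, troponin I holds the filament in the blocked state, and troponin T fastens the complex to tropomyosin. When calcium rises, troponin C releases the block and contraction follows. Each subunit is encoded by paralogs named for the muscle in which they prevail in the adult, and the embryonic heart is known to use slow skeletal troponin I (Tnni1) before cardiac troponin I (Tnni3) replaces it after birth.

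A single paralog of each subunit accounted for most of the signal in both groups: Tnnt2 for troponin T, Tnni1 for troponin I, Tnnc1 for troponin C and Tpm1 for tropomyosin. The 250 bases before their RefSeq start sites (build GRCm38.p6, 5′ to 3′ on the strand of the gene) are shown for these 4 genes, the most abundant of each family; which start sites were used in these ventricles was not measured. Capitals mark, on either strand, the T-box core AGGTGT (bound by factors such as Tbx5), the M-CAT core CATTCC (bound by TEAD factors) and the GATA factor core GATAA. None of the marked matches overlap.
Tnnt2, chr1:135836084-135836333, plus strand: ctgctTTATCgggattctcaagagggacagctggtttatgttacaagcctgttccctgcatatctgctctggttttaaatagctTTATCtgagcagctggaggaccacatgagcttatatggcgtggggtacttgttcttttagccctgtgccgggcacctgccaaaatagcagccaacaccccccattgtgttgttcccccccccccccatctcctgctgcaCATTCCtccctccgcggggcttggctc
Tnni1, chr1:135799171-135799420, plus strand: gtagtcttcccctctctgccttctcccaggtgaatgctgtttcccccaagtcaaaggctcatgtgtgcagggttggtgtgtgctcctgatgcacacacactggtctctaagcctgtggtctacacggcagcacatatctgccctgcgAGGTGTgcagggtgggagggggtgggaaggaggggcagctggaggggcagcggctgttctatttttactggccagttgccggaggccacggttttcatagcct
Tnnc1, chr14:31208062-31208311, plus strand: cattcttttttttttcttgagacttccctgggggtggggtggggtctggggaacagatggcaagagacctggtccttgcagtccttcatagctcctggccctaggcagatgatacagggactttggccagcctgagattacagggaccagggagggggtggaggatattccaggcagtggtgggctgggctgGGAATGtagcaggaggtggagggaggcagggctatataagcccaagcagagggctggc
Tpm1, chr9:67049214-67049463, minus strand: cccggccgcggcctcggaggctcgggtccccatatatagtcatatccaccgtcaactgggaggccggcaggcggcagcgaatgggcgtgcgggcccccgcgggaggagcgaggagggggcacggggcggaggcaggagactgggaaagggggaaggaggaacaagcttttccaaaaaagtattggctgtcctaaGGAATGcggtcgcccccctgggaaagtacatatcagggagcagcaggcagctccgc

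CATTCC was found in 3 of the 12 windows of the members, and all 3 are among the windows printed. It began 27 bases before the start site in Tnnt2, and on the opposite strand it lay 58 to 53 bases before the start site in Tnnc1 and 56 to 51 bases before it in Tpm1. Of all 32841 RefSeq promoter windows of this length, 12.6% held this motif. The T-box core AGGTGT was present in Tnni1, 103 to 98 bases before the start site, and across the members it was found in 4 of 12 windows, those of Tnni1, Tnnt1 and Tnni3, against 11.8% of all windows. GATAA was found in 3 of the 12 windows, those of Tnnt2 and Tpm3, against 22.6% of all windows. Neither the MEF2 motif (2.92% of all windows) nor the CArG box of serum response factor (1.47%) was found in the 12 windows of the 9 members with an entry, which describes these letters in these windows only. There was no entry for Tnni2. The start site used for Tnnt2 lies 52 bases from the gene start in the authors' table, whereas those of Tnni1, Tnnc1 and Tpm1 coincide with it.

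The 4 most abundant members differed by less than 4% between the groups in the values as listed. Tnnc1, the troponin C of cardiac and slow skeletal muscle (chromosome 14, 31208312 to 31211711, mm10), stood at 3329.5 in WT against 3215 FPKM in KD, a change of -3.45%. It held rank 25 among all genes in WT and rank 32 in KD. Tpm1, the striated muscle α-tropomyosin gene (chromosome 9, 67022593 to 67049213), had 3257 in WT against 3258 FPKM in KD, which left it at almost the same level (rank 27 and rank 30). Tnni1 (chromosome 1, 135799421 to 135810989) had 2924 in WT against 2867 FPKM in KD, a change of -1.95%. Tnnt2, the cardiac troponin T (chromosome 1, 135836386 to 135852261), had 1842 in WT against 1807 FPKM in KD, a change of -1.90%. Of these 4 genes, then, 3 were slightly lower in KD, and the order of Tnnc1 and Tpm1 was exchanged. Scaled to the same summed FPKM, the log2 differences were -0.081 for Tnnc1, -0.030 for Tpm1, -0.059 for Tnni1 and -0.058 for Tnnt2. As listed they were -0.051, 0.0003, -0.028 and -0.028 in the same order. Tnni3, the troponin I of the adult heart (chromosome 7, 4518308 to 4522443), was the fifth in both groups, with 1115 in WT against 1185 FPKM in KD, a change of 6.23%.

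**Figure D1:**
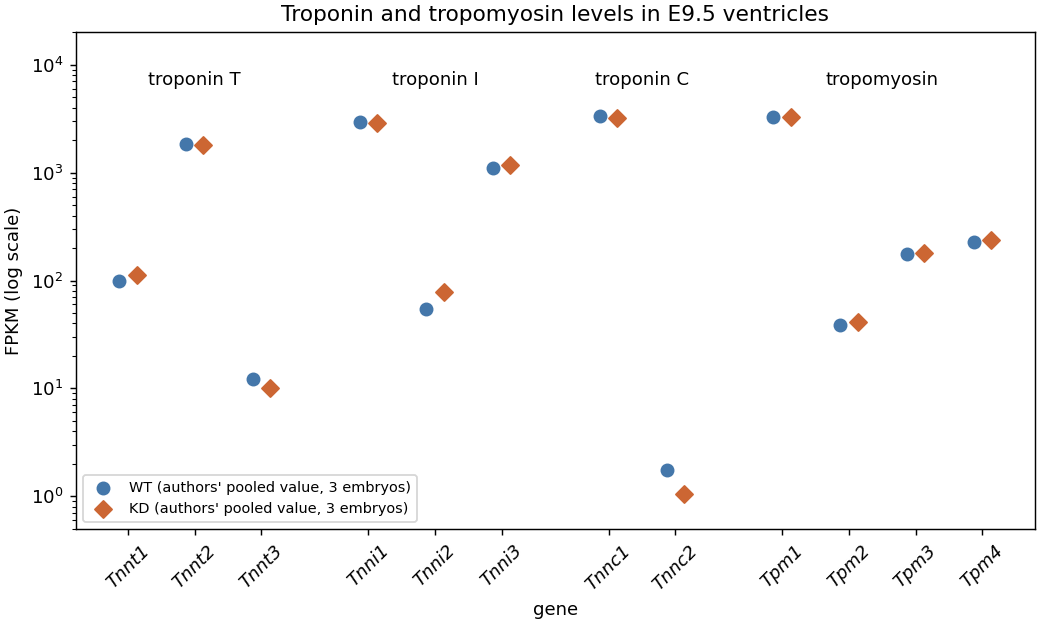
Group value in FPKM (log scale) of each troponin and tropomyosin gene in WT (circles) and KD (diamonds), 1 pooled value per group with no error bar. The pairs of symbols lie nearly level except for Tnni2 (54.9 and 79.1 FPKM) and the low paralogs Tnnt3 and Tnnc2.

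The less abundant members all had the higher value in KD. Tpm4, which encodes a tropomyosin best known from the cytoskeleton of non-muscle cells (chromosome 8, 72135292 to 72153129), had 227 in WT against 239 FPKM in KD, a change of 5.08%. Tpm3, which yields both slow muscle and cytoskeletal tropomyosins (chromosome 3, 90072651 to 90100902), had 175 in WT against 181 FPKM in KD, a change of 3.33%. Tpm2, the β-tropomyosin of skeletal and smooth muscle (chromosome 4, 43514712 to 43523388), was the lowest member, with 39.1 in WT against 41.1 FPKM in KD, a change of 5.09%. All 3 of these tropomyosins were slightly higher in KD, with log2 differences of 0.05 for Tpm3, 0.07 for Tpm2 and 0.07 for Tpm4, which became 0.017, 0.040 and 0.041 when the groups were scaled to the same summed FPKM. Tnnt1, the slow skeletal troponin T (chromosome 7, 4504663 to 4515975), had 99.7 in WT against 112 FPKM in KD, a change of 11.9%. The widest gap relative to its level belonged to Tnni2, the fast skeletal troponin I (chromosome 7, 142442468 to 142444405). It had 54.9 in WT against 79.1 FPKM in KD, a change of 44.0%. Apart from the exchange of Tnnc1 and Tpm1, the order of the 10 genes by level was the same in both groups. Since the table holds no value of a single embryo, whether neighbours in this order differ beyond the spread between embryos was not tested.

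To set the differences on a common scale, log2((KD + 1)/(WT + 1)) was computed from the FPKM values, and a gene was counted as past the fold when this was at least 1.5-fold in either direction. None of the 10 members reached 1.5-fold, against 3.66% of the 11606 genes kept, those that reached 1 FPKM in WT or in KD. With the bound lowered to a log2 difference of 0.32 in size, 1 of 10 members was past it, Tnni2 with a log2 difference of 0.52, against 15.2% of these genes. Highly expressed genes had smaller differences between the groups, so the same was counted over the 3044 genes that reached 30 FPKM in WT or in KD, a bound chosen after the values were seen because every member is above it. Of these genes 2.76% were past 1.5-fold and 7.19% past a log2 difference of 0.32. In this set 98 genes had a larger difference in size than Tnni2, and 852 had a larger one than Tnnt1, whose log2 difference was 0.16. Tpm1 had the smallest difference of the members (log2 difference 0.00), and 3039 genes had a larger one. The median log2 difference of the members was 0.06 and ran from -0.05 for Tnnc1 to 0.52 for Tnni2, beside a median of 0.00 over all genes kept. Scaled to the same summed FPKM, these medians were 0.03 and -0.02. The median size of the difference was 0.06 for the members, 0.13 for all genes kept and 0.10 for genes at 30 FPKM or more. 7 members were higher and 3 lower in KD, where 50.9% of all genes kept were higher, and Tpm1 passes to the lower side when the groups are scaled to the same median or the same sum.

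**Figure D2:**
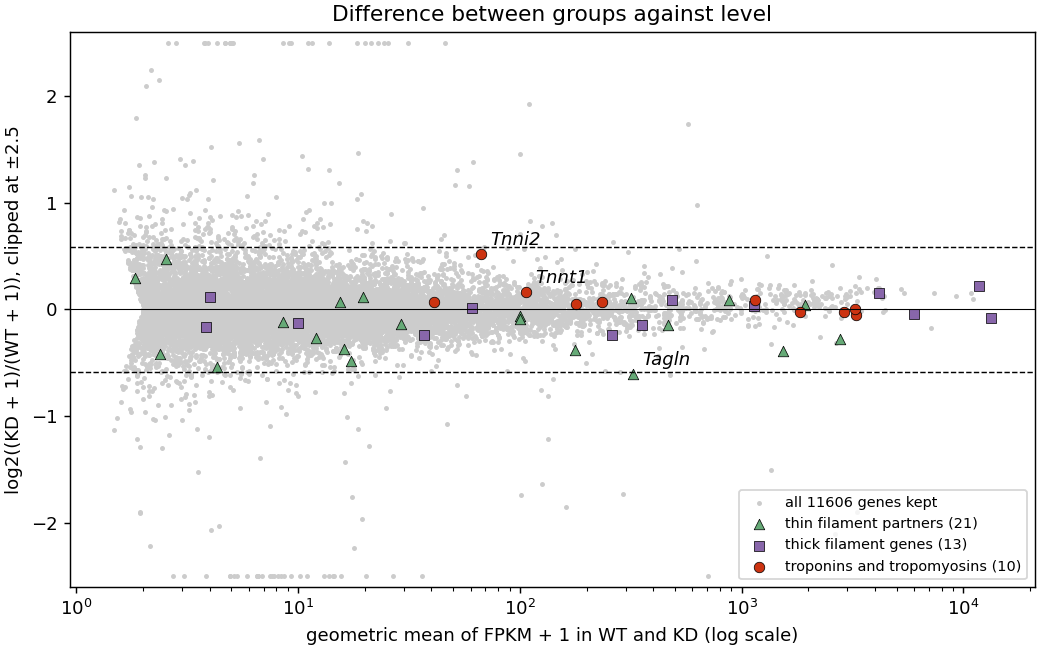
Log2 difference, KD over WT, against the geometric mean of FPKM + 1 for the 11606 genes kept (grey), with troponins and tropomyosins (red circles), thin filament partners (green triangles) and thick filament genes (violet squares). Dashed lines mark 1.5-fold, and values beyond the axis are drawn at its edge. The 10 members lie between them, with Tnni2 at 0.52 closest to the upper line and Tagln at -0.60 beyond the lower one.

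Because FPKM is scaled to transcript length, the paralogs of a subunit can be compared within a group. For this, the remaining troponin genes Tnnt3 and Tnnc2, which encode fast skeletal troponin T and fast skeletal troponin C, were added to the members. Tnnt2 made up 94.3% of the summed FPKM of troponin T in WT against 93.7% in KD. Tnnt1 made up 5.10% in WT and 5.78% in KD. Troponin C was almost wholly Tnnc1, with a share of 99.9% in WT and 99.97% in KD. Troponin I was the only family in which a second paralog contributed more than 10% of the signal. Tnni1 held 71.4% of troponin I in WT and 69.4% in KD, Tnni3 held 27.2% and 28.7%, and Tnni2 held 1.34% and 1.91%. The ratio of Tnni1 to Tnni3, which compares the fetal with the adult form, was 2.62 in WT and 2.42 in KD. Tnni1 thus remained the main troponin I, with its share 2.01 percentage points smaller in KD. Among tropomyosins, Tpm1 held 88.1% in WT and 87.6% in KD, followed by Tpm4 with 6.14% and 6.42%, Tpm3 with 4.73% and 4.86% and Tpm2 with 1.06% and 1.10%.

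**Figure D3:**
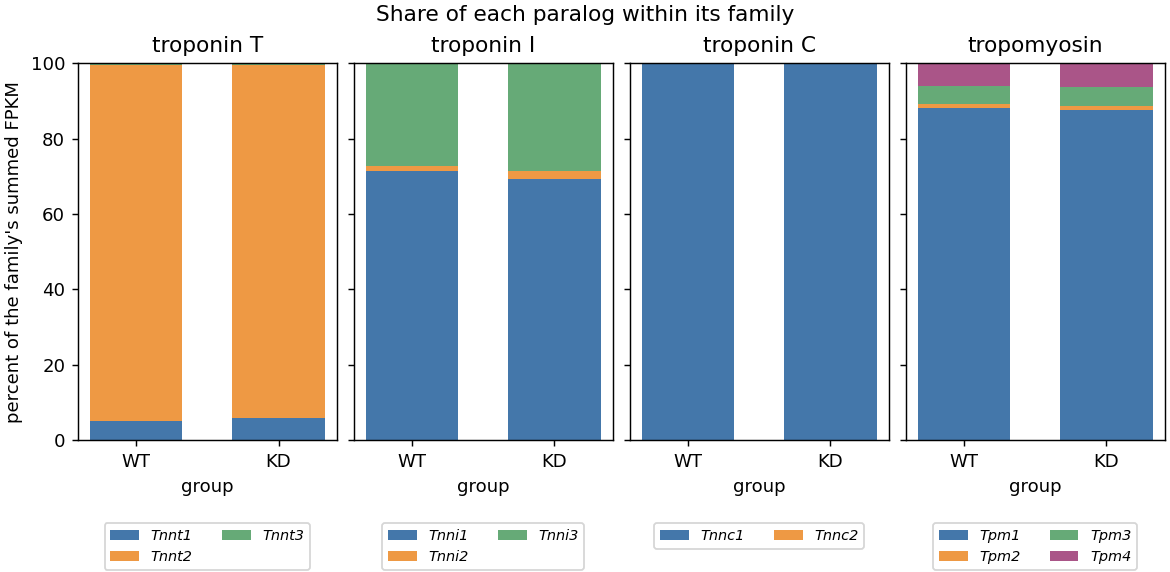
Percent of each family's summed FPKM contributed by each paralog in WT and KD, 1 pooled value per group. The composition is nearly the same in the 2 groups; the widest shift is that of Tnni1, from 71.4% to 69.4% of troponin I.

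The family sums as listed differed by less than 4%. They were not scaled to the same summed FPKM, which was 859452 in WT against 877889 in KD. That scaling shifts log2 differences by -0.031. Summed troponin T was 1954 in WT against 1929 FPKM in KD, a change of -1.30%. Summed troponin I was 4094 in WT against 4130.4 FPKM in KD, a change of 0.90%. Summed troponin C was 3331 and 3216 FPKM, a change of -3.47%, and summed tropomyosin was 3698 and 3719 FPKM, a change of 0.54%. Relative to troponin T, the level of troponin I RNA was 2.09-fold in WT and 2.14-fold in KD, that of troponin C 1.70-fold and 1.67-fold, and that of tropomyosin 1.89-fold and 1.93-fold. At the level of RNA, these ratios of family sums were thus close in the pooled values of WT and KD, with no measure of the spread between embryos. The tropomyosin sum includes Tpm3 and Tpm4, which yield cytoskeletal tropomyosins, so it is not that of the sarcomere alone. The 10 members together made up 1.52% of the summed FPKM of the table in WT and 1.48% in KD. In bulk tissue, a smaller number of cardiomyocytes and less RNA per cardiomyocyte cannot be told apart.

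Tnni2 was examined further, as the member with the widest gap relative to its level. In the mouse genome the troponin I and T genes lie in pairs, and in the authors' table Tnni1 and Tnnt2 are 25.4 kb apart on chromosome 1, Tnnt1 and Tnni3 are 2.33 kb apart on chromosome 7, and Tnni2 lies 16.5 kb from a merged locus on chromosome 7 that holds Tnnt3 together with Lsp1 and Gm14492. The pair of Tnni1 and Tnnt2 differed alike (log2 differences of -0.03 and -0.03), and Tnnt1 and Tnni3 were both higher in KD (0.16 and 0.09). Tnni2 and Tnnt3 did not share a direction. Tnnt3 had 12.3 in WT against 10.0 FPKM in KD, a log2 difference of -0.26, so that the ratio of Tnni2 to Tnnt3 was 4.48 in WT and 7.88 in KD. The third fast skeletal subunit gene, Tnnc2, had 1.75 in WT against 1.06 FPKM in KD. Of the fast skeletal troponins, Tnni2 was thus higher in KD and the other two were lower. Tnnt3 has no locus of its own in the table. Lsp1, at the same locus, has a separate value (20.3 in WT against 21.4 FPKM in KD). No 50-base stretch in the coding transcripts of Tnnt3 occurred in a transcript of another gene. How the shared locus bears on the Tnnt3 value was not tested. For Tnnc2, 55.0% of the distinct 50-base stretches also occur in transcripts of its neighbour Ube2c, so its value is less certain. The skeletal muscle markers Myod1, Myf5, Myog, Pax7 and Myh3 were listed at 0 in both groups and Pax3 was near 0 (0.00356 in WT against 0.00631 FPKM in KD), whereas Ckm was 1.78 in WT against 2.63 FPKM in KD and Actn3, a fast fibre α-actinin, was 1.95 in WT against 4.19 FPKM in KD. Over all 10 skeletal muscle markers, Tnnt3 and Tnnc2 among them, the summed level was 17.7 in WT against 17.9 FPKM in KD, most of it Tnnt3. The 8 markers without these troponins summed to 3.73 in WT against 6.82 FPKM in KD, nearly all of it Ckm and Actn3.

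The levels of paralogs with similar sequence depend on how reads that fit several genes were shared out, which is not given in the sources used here. The longest complete coding sequence annotated in GENCODE release M21 has 187 codons in Tnni1, 182 in Tnni2 and 211 in Tnni3. Their aligned coding bases were 69.9% identical between Tnni1 and Tnni3, 72.1% between Tnni1 and Tnni2 and 71.4% between Tnni2 and Tnni3. Tropomyosins were closer to each other, from 74.0% between Tpm3 and Tpm4 to 78.3% between Tpm1 and Tpm4. Even so, no stretch of 50 bases in the coding transcripts of Tnnt1, Tnnt2, Tnni1, Tnni2, Tnnc1, Tpm1 or Tpm2 occurred in a transcript of another gene. For Tpm3, 40.0% of the distinct 50-base stretches also occurred in annotated transcripts of other loci, namely Tpm3-rs7 and 4 predicted genes, and for Tpm4 16.1% did, in Gm26586 and Gm7809. For Tnni3 the share was 2.76%, in Dnaaf3. The values of Tpm3 and Tpm4 are therefore the less certain ones. Smart-Seq2 does not mark the strand of a transcript, and GENCODE places genes on the opposite strand across parts of Tnnc1 (Nisch) and Tpm4 (Gm26586 and Gm16091), while Tnni3 overlaps Dnaaf3 on its own strand. The table also merges all isoforms of a gene. Tpm1 has 16 annotated coding transcripts and Tnnt2 has 12, so a shift between muscle and non-muscle tropomyosin or between embryonic and adult troponin T splice forms would not be seen.

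The genes that work beside troponin and tropomyosin on the thin filament had log2 differences from -0.60 to 0.47. The list of 26 partners held actins, tropomodulins and leiomodins, which cap or lengthen the filament ends, nebulin relatives, calponins and others, and also the non-member troponins Tnnt3 and Tnnc2. Of these 26 genes, 21 reached 1 FPKM in WT or in KD. Of the 21, 1 was past 1.5-fold (3.66% of all genes kept were), Tagln, an actin-binding protein of smooth muscle and of the early heart, with 400.3 in WT against 263 FPKM in KD, a log2 difference of -0.60. Tagln has no locus of its own in the table either, sharing it with Pcsk7 and Rnf214. The same holds for Nrap (with Habp2), which had the highest log2 difference of the partners kept, and for Tmod1 (with Tstd2). Cnn1 shares its locus with 14 other genes and Cnn2 with 45. With a pseudocount of 0.1 the count was 4, through the low genes Lmod1, Nrap and Tnnc2, against 7.58% of all genes kept, and with no pseudocount it was 5, with Tmod2 added, against 7.72%. In all, 7 partners were higher and 14 lower in KD, with a median of -0.14, whereas the members had a median of 0.06. At the lower bound of 0.32 on the log2 scale, 8 of 21 partners were past it, 7 of them lower in KD, compared with 1 of 10 members and 15.2% of all genes kept, and the difference between the lists was not tested. Without Tnnt3 and Tnnc2, 7 partners were higher and 12 lower, with a median of -0.12, and 7 of 19 were past the lower bound, 6 of them lower in KD. The most abundant partners in WT were Acta2, the smooth muscle actin that the embryonic heart also expresses, with 3045 in WT against 2512 FPKM in KD (log2 difference -0.28), and Actb, a cytoplasmic actin, with 1908 in WT against 1967 FPKM in KD (0.04). Acta1, the sarcomeric actin named for skeletal muscle, had 1759.8 in WT against 1345 FPKM in KD (-0.39). Actc1, the cardiac actin, was listed at 0 in both groups with a status that marks a locus with too many reads to be quantified, so the cardiac actin itself cannot be set beside its regulators. Of the 21 thick filament genes, 13 were at 1 FPKM or more, and 0 of these were past either bound (3.66% and 15.2% of all genes kept were). The most abundant, the myosin light chains Myl7 and Myl2, had 13643 and 10924 in WT against 12907 and 12702 FPKM in KD. The median log2 difference of the thick filament genes was -0.04.

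**Figure D4:**
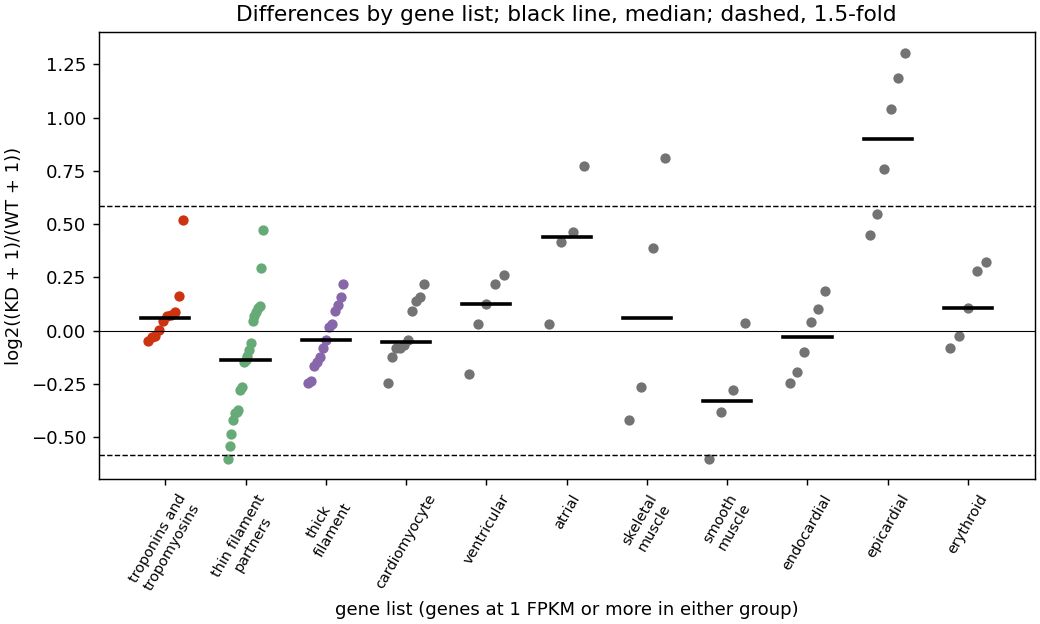
Log2 difference, KD over WT, of each gene at 1 FPKM or more in either group, by gene list, with the median as a black line and 1.5-fold as dashed lines. Apart from Tnni2, the members lie between -0.05 and 0.16, while the partners reach down to -0.60 and the epicardial markers lie between 0.45 and 1.31. Some genes appear in several lists.

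The tissue label was checked against markers. All 10 cardiomyocyte markers were above 1 FPKM, with a summed level of 35866 in WT against 37169 FPKM in KD and a median log2 difference of -0.06, and the ventricular light chain Myl2 was among the highest genes. Most of these markers (Myh6, Myh7, Myl2, Myl3, Myl4, Myl7 and Ttn) are also in the thick filament list, so the lists are not independent. The atrial marker Sln was listed at 0 in both groups, but so was 1 of 83 ribosomal protein genes, so a listed 0 need not mean a low level. Ventricular markers summed to 10995 in WT against 12771 FPKM in KD, nearly all of it Myl2, and the other 4 summed to 70.4 in WT against 69.6 FPKM in KD. Of 6 atrial markers 4 were at 1 FPKM or more, all 4 higher in KD, and 1 of them was past 1.5-fold and 3 past a log2 difference of 0.32, where 3.66% and 15.2% of all genes kept were. Their list summed to 1126 in WT against 1155 FPKM in KD, nearly all of it Myl1, which is best known as a light chain of fast skeletal muscle and so is no clear atrial marker, and which the skeletal muscle list does not hold (1122 in WT against 1147 FPKM in KD). The other 5 genes summed to 3.88 in WT against 7.17 FPKM in KD, and the light chains Myl7 and Myl4, atrial in the adult and counted here among cardiomyocyte markers, had log2 differences of -0.08 and -0.04. Endocardial markers summed to 96.7 in WT against 94.1 FPKM in KD, and 0 of 6 were past 1.5-fold, where 3.66% of all genes kept were. The erythroid markers, 5 of the 6 listed being in the table, summed to 11438 in WT against 11518 FPKM in KD. Of the 6 epicardial markers 6 were higher in KD and 4 were past 1.5-fold, against 3.66% of all genes kept, with a sum of 47.0 in WT against 95.9 FPKM in KD, each gene ranging from 0.87 to 13.8 in WT against from 1.74 to 25.5 FPKM in KD. Of the smooth muscle markers at 1 FPKM or more 3 of 4 were lower in KD, namely Acta2, Tagln and Cnn1 (the last at a locus merged with 14 other genes), which are also in the partner list and of which the embryonic heart itself expresses Acta2 and Tagln. The list had a sum of 3674 in WT against 2957 FPKM in KD, and Myh11 was at 0.26 in WT against 0.04 FPKM in KD. The part of these other cell types in the differences of Tnni2, Tnnt1, Tpm2, Tpm3 and Tpm4 was not tested.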

How the data were processed

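RNA-seq libraries were prepared with the Smart-Seq2 protocol from E9.5 ventricles of 3 WT and 3 KD embryos and sequenced single-end. The authors deposited 1 table from Cuffdiff in which each gene has 1 FPKM value per genotype, the KD group under the name KO. The submitters' processing notes name TopHat, Bowtie2, Cuffdiff and mm10, with versions not given in the sources used here. The table's fold changes, test statistics, p-values and q-values are the authors' own comparison and were not used. Depth is unknown.

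Differences are log2((KD + 1)/(WT + 1)), a scale that understates the change of low genes, over genes that reached 1 FPKM in WT or in KD. Table starts count from 0, and 1 was added: 9652 genes then matched a GENCODE M21 transcript start, against 944 as written. Stretches of 50 bases from the coding transcripts of each member were searched on both strands of all GENCODE transcripts, a length chosen here. Coding sequences were aligned globally (match 1, mismatch -1, gap opening -3, gap extension -0.5). All members, Tnnc2 and Tnnt3, every gene past the fold in the partner and thick filament lists, and the 2 most abundant genes of each were named. Other genes were named after their values were seen. Promoter windows were taken from RefSeq (GRCm38.p6). Other pseudocounts, filters, folds and scalings were tried as alternatives. Members and lists were chosen with earlier results of these data known. The fold rule was tested on simulated data. How the rule behaves at the spread between these embryos was not tested, because single embryos have no values of their own. Python 3.11.15, NumPy 2.4.6, pandas 2.3.3, Biopython 1.88 and Matplotlib 3.10.9 were used.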

Additional observations from a re-analysis of the deposited data

How the results depend on the processing

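No paired analysis was possible because single embryos have no values of their own, and for the same reason the alternatives without each replicate were not run. A value was taken as moved when it changed at 2 decimals, as embryos cannot be compared with each other. The count of members past the fold was 0 in each alternative except the lower bound of 0.32 (log2). That bound gave 1, Tnni2, against 15.2% of all genes kept. Their median log2 difference of 0.058 became 0.0543 with KD scaled to a median difference of 0 and 0.0283 with both groups scaled to the same summed FPKM. Among 40 values of single members under other pseudocounts and scalings, 2 changed sign, both for Tpm1 under the 2 scalings, and the largest move was 0.03. The count of thin filament partners past the fold, 1, became 4 with a pseudocount of 0.1 and 5 with none. The shares over all genes counted were 7.58% and 7.72% in these settings. It became 8 at the lower bound, against 15.2% of all genes kept, and 0 at a fold of 2, where no such share was computed. That of thick filament genes was 0 throughout. For the paralog shares the only alternative, leaving out paralogs under 1 FPKM, removed no gene and so says nothing about their stability. The filter at 30 FPKM, and the partner list without Tnnt3 and Tnnc2 (count 1), were chosen after seeing the data. Without a depth, the precision of the low values of Tnnc2 and Tnnt3 cannot be given.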
